A study of Mus musculus with 138 samples.

Results

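The osteogenic front (OF) of the parietal bone at the sagittal suture was compared between E18.5 and E16.5. Its libraries were chosen by their labels alone, as laser-captured samples of the sagittal suture and the parietal OF, which gave 5 libraries of each age, 10 of the 138 samples of the series and 10 of the 100 first libraries of captured regions. The series asks how the mesenchyme (SM) and the OFs of the sutures of the mouse skull vault differ in transcription late in embryonic development. All embryos were wild-type C57BL/6J, without a transgene, drug or deletion. Each library came from 1 embryo whose sex was not given, and the SM of the same suture was captured from the same embryos. The embryos of each age came from 2 litters by their labels. At E16.5, replicates 1 and 2 were of one litter and replicates 3, 4 and 5 of another. At E18.5, replicates 1, 2 and 3 were of a first litter and replicates 4 and 5 of a second litter. Where the litter labels are read as dates, the first E18.5 litter was from an earlier year than the second and than the E16.5 litters. No litter held embryos of both ages, so that age and litter cannot be told apart. The captured strips were small, and their RNA was amplified before the libraries were made.

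An OF is the growing edge of a membrane bone, where cells that divide give rise to osteoblasts without a cartilage template. Osteoblasts first secrete a matrix rich in type I collagen, then load it with mineral-binding phosphoproteins, and some become buried as osteocytes. The parietal bones of both sides meet at the sagittal suture, and capillaries follow the bone as it grows. Because a strip of tissue was measured as a whole, more cells of a type and more RNA per cell cannot be told apart for any gene described here.

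The 10 libraries held 14359500 to 17338800 counted read pairs, with 5 or more counts for 19014 to 20393 genes. Mitochondrial genes took 14.3% to 17.2% of counts at E16.5 and 14.3% to 19.2% at E18.5. The 100 genes with the most counts took 36.2% to 38.3% at E16.5 and 39.4% to 43.4% at E18.5, without overlap (2-sided exact permutation test, p = 0.00794, the smallest that 5 against 5 libraries allow, and 0.0278 after Benjamini-Hochberg adjustment over 21 measures of the libraries). To describe the labelled tissue, 6 genes of osteoblasts were summed, namely Runx2, Sp7, Alpl, Ibsp, Col1a1 and Spp1. The sum came to 23973 to 33052 CPM (counts relative to the size of the library, scaled by TMM) at E16.5 and to 44631 to 61468 at E18.5, and none of the 6 was at 0 in any library. Col1a1 and Ibsp, whose levels are given below, made up most of it. The sum was not compared with the SM, so it cannot by itself tell an OF from SM. On the first 2 principal components, of which the first held 26.3% of the variance, the ages separated along the first and the E18.5 libraries of the 2 litters lay apart along the second.

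**Figure D1:**
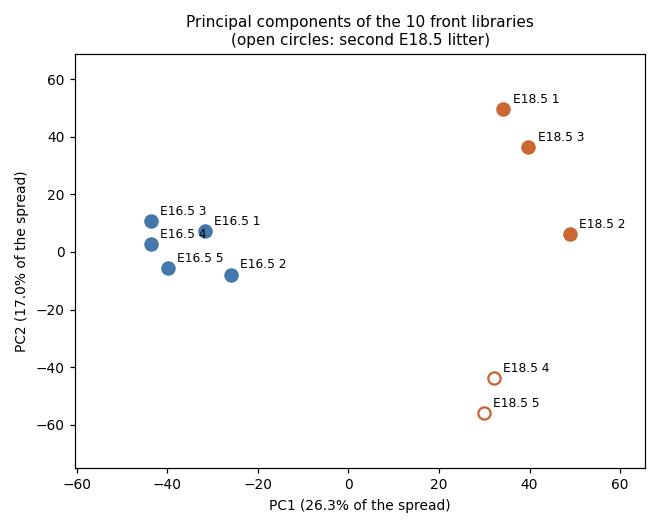
The 10 front libraries (blue E16.5, orange E18.5, numbers are replicates, open circles the second E18.5 litter) on the first 2 principal components of log2 CPM, of which the first holds 26.3% of the spread. The 5 libraries of each age sit on their own side of the first component, and E18.5 replicates 4 and 5 are the lowest on the second.

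Markers of cells other than osteoblasts differed in level between the 2 ages. The 13 endothelial markers summed to 75.6 to 143 CPM at E16.5 and to 242 to 393 CPM at E18.5 (exact permutation p = 0.00794, adjusted 0.0278). The 11 markers of pericytes and smooth muscle summed to 362 to 430 and to 474 to 636 CPM (exact permutation p = 0.00794, adjusted 0.0278). Red cell and neural markers instead moved with the litter. The erythroid sum was 2020, 3353 and 5947 CPM in E18.5 replicates 1, 2 and 3, and 199 and 178 CPM in replicates 4 and 5, against 176 to 604 CPM at E16.5 (exact permutation p = 0.151). The neural sum was 143, 70.7 and 123 CPM in E18.5 replicates 1, 2 and 3, and 28.7 and 33.0 CPM in replicates 4 and 5, against 35.9 to 43.8 CPM at E16.5 (exact permutation p = 0.167). The first E18.5 litter was thus above every E16.5 library in both sums, and the second was not. Macrophage markers (218 to 277 and 161 to 302 CPM) and osteoclast markers (214 to 239 and 229 to 280 CPM) overlapped between the ages, and none of the 16 and 8 tested genes of these lists passed the test of age. The adipocyte sum had medians of 13.2 CPM at E16.5 and 60.9 CPM at E18.5 and did not overlap (exact permutation p = 0.00794, adjusted 0.0278), of which Fabp4, a gene that capillaries also express, made up 3.78 to 9.85 and 42.0 to 60.3 CPM. The dura mater sum was 16.6 to 20.9 and 21.9 to 27.3 CPM and the skeletal muscle sum 4.02 to 7.04 and 1.87 to 4.36 CPM (exact permutation p = 0.00794 and 0.0159, adjusted 0.0278 and 0.0476). The part of any of these cell types in the changes described below was not tested. No granulocyte marker of 10 reached the filter on low counts, and 2 of 10 neural and 2 of 10 erythroid markers rose.

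**Figure D2:**
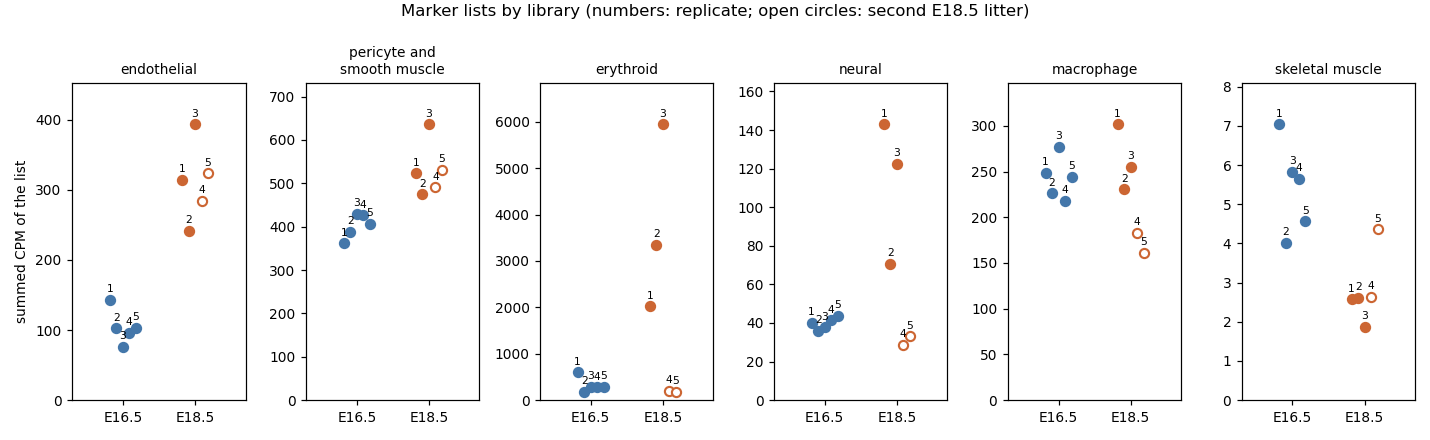
Summed CPM (linear axes from 0) of 6 marker lists, with 1 point per library, its replicate number beside it, and open circles for the second E18.5 litter. The endothelial sums of the ages are apart, and of the E18.5 libraries only replicates 1, 2 and 3 lie above all E16.5 libraries in the erythroid and neural sums.

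Between the ages, 224 genes rose and 90 fell among 19768 tested, which was 1.13% and 0.455% of the genes (edgeR quasi-likelihood test over all 100 captured libraries, Benjamini-Hochberg adjusted p below 0.05). The median log2 fold change was 1.68 in size among the genes that rose and 0.81 among those that fell, and -0.02 over all genes tested. With libraries scaled by total counts instead of TMM, 139 genes rose and 146 fell, and the median over all genes tested was -0.14. When the spread was estimated from the 10 front libraries alone, 1337 genes were higher and 882 lower at E18.5 among 17661 tested, or 7.57% and 4.99%, and 301 of the 314 genes called above were called again. The front libraries differed less from each other than the 100 libraries did within their groups, with a common biological coefficient of variation of 0.212 against 0.473. In the sentences below a gene rose or fell only where it passed the test over the 100 libraries, and a gene past the threshold only in the front libraries alone is given with that p. The filter on low counts was set anew for the front libraries alone. Some lists thus had fewer genes tested there, such as 12 of the 13 endothelial and 33 of the 35 Wnt genes. The 5 libraries of one age all lay above those of the other for 914 genes that were higher at E18.5 (4.62%) and for 747 that were lower (3.78%), and 277 of the 314 called genes were among them.

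Of 13 endothelial markers tested, 9 rose and none fell, with a median log2 fold change of 1.91, and in the front libraries alone 11 were higher. Those that rose were Pecam1, Cdh5, Kdr, Flt1, Tie1, Emcn, Esam, Egfl7 and Plvap. Pecam1, an adhesion molecule at the junctions of endothelial cells (mm10, chr11:106654217-106750628, minus strand), stood at 17.3, 9.93, 6.63, 9.56 and 8.79 CPM in E16.5 replicates 1 to 5 and at 45.5, 31.0, 57.2, 38.3 and 47.0 CPM in E18.5 replicates 1 to 5. The lowest E18.5 library was above the highest E16.5 library, and the increase was 2.07 on the log2 scale (SE 0.27, edgeR with Benjamini-Hochberg adjustment, adjusted p = 3.76e-08). Kdr and Flt1, the receptors for vascular endothelial growth factor, rose by 1.86 (SE 0.28) and 2.64 (SE 0.33), and Cdh5, the cadherin of endothelial junctions, by 1.63 (SE 0.29). Aplnr, the receptor for apelin on growing vessels (chr2:85136225-85139923, plus strand), stood at 5.13, 1.54, 2.23, 0.845 and 3.24 CPM at E16.5 and at 34.4, 26.9, 49.9, 29.2 and 35.5 CPM at E18.5. Every E18.5 library was above every E16.5 library, and the increase was 3.76 (SE 0.44, edgeR, adjusted p = 1.57e-09).

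Of the 11 markers of pericytes and smooth muscle, 2 rose and none fell, and in the front libraries alone 5 were higher and 1 lower. Rgs5, a regulator of G protein signaling that marks pericytes, was between 0.405 and 4.20 CPM at E16.5 and at 37.2, 23.4, 38.9, 42.1 and 101 CPM at E18.5, with no overlap (log2 fold change 4.78, SE 0.64, edgeR, adjusted p = 1.29e-07). Mcam, an adhesion molecule of vessel walls, rose by 1.33 (SE 0.28). The median of the list was 0.71. Cspg4, another of its genes, had a log2 fold change of 0.48 (SE 0.28, edgeR, adjusted p = 0.72 over the 100 libraries and 0.00137 in the front libraries alone). Fabp4, a fatty acid binding protein of capillaries and fat cells, rose by 2.89 (SE 0.38). Of the 6 fat cell genes of its list, 3 were tested, and Fabp4 alone rose. Pparg, the receptor that directs fat cell differentiation, was at 0.118 to 0.955 and 0.745 to 2.75 CPM and was higher in the front libraries alone (log2 fold change 2.02, SE 0.88, edgeR, adjusted p = 0.399 and 0.0126). Lpl was not called in either fit, and Adipoq, Plin1 and Cidec were below the filter on low counts. Of genes outside these lists that endothelial cells express, Arhgef15, Cav1, Flt4 and Itga6 rose by 2.61 (SE 0.44), 2.41 (SE 0.28), 1.66 (SE 0.31) and 1.61 (SE 0.27), and Thbd, the thrombin receptor thrombomodulin, fell by 1.11 (SE 0.29). All 5 came from the rules for naming genes by their values.

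Col4a1 encodes a chain of the type IV collagen of basement membranes. It stood at 113, 67.7, 63.2, 68.6 and 80.2 CPM at E16.5 and at 222, 160, 289, 201 and 250 CPM at E18.5, an increase of 1.52 (SE 0.18, edgeR, adjusted p = 2.01e-09). Col4a2, its partner chain, rose by 1.19 (SE 0.20), and Col15a1, a collagen of vessel basement membranes, by 1.95 (SE 0.23). Both ages were apart in all 5 libraries for these 3 genes. Col4a1 lies at chr8:11198423-11312826 on the minus strand and Col4a2 at chr8:11312805-11449287 on the plus strand, so that their first exons overlap and a part of their reads cannot be assigned without strand. These genes lie with the endothelial marker sum, which was higher in all 5 E18.5 libraries. The part of vessel content in their change was not tested. With the second E18.5 litter alone, 7 of the 13 endothelial markers rose, and the median over all 13 was 1.77. The log2 fold changes in that fit were 2.05 for Pecam1, 3.66 for Aplnr, 5.36 for Rgs5 and 1.54 for Col4a1. This fit reuses libraries by which the genes were called and is no separate test.

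**Figure D3:**
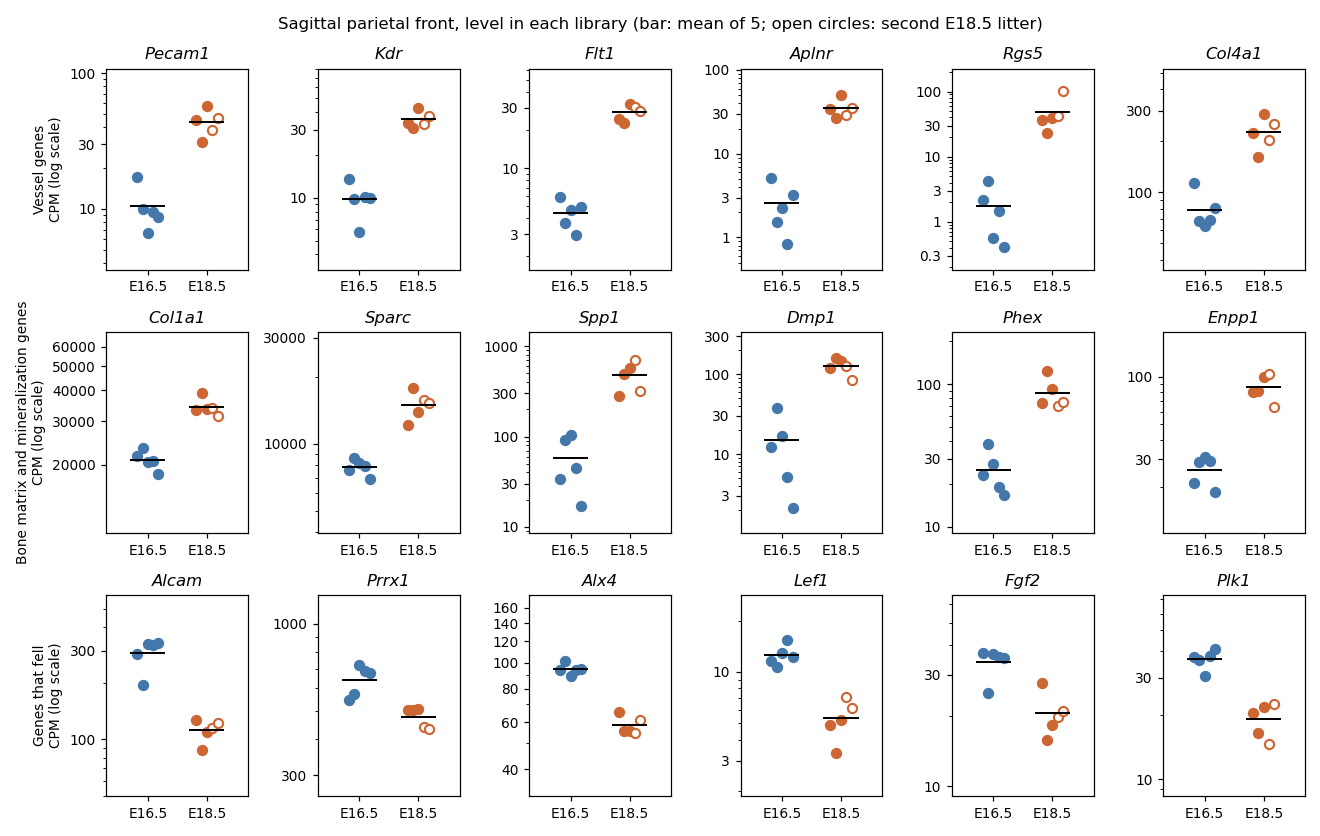
CPM (log axes) of 18 genes in the 10 front libraries, 1 point per library, with a bar at the mean of 5 and open circles for the second E18.5 litter. The rows hold vessel genes, matrix and mineralization genes, and genes that fell. The ages overlap only for Fgf2. The genes were picked with their values known. Over all genes tested, 4.62% were higher and 3.78% lower at E18.5 without overlap.

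Of 18 genes of the bone matrix tested, 10 rose and none fell, with a median log2 fold change of 0.82, and 15 were higher in the front libraries alone. The 10 were Col1a1, Col1a2, Sparc, Spp1, Bglap2, Dmp1, Tnn, Col11a1, Col11a2 and Col5a2. Dmp1, an acidic phosphoprotein of mineralizing osteoblasts and early osteocytes (chr5:104202613-104214102, plus strand), stood at 12.4, 37.9, 16.7, 5.12 and 2.14 CPM at E16.5 and at 120, 160, 147, 128 and 84.4 CPM at E18.5. The ages did not overlap although the E16.5 libraries themselves spread widely, with replicate 2 the highest and replicate 5 the lowest. Its log2 fold change was 3.11 (SE 0.71, edgeR, adjusted p = 0.00638). Spp1, which encodes osteopontin, a mineral-binding phosphoprotein (chr5:104435118-104441050, plus strand), stood at 34.1, 91.8, 104, 44.8 and 17.2 CPM at E16.5 and at 282, 493, 572, 704 and 317 CPM at E18.5. It too was without overlap, with a log2 fold change of 3.02 (SE 0.68, edgeR, adjusted p = 0.00537). With the second E18.5 litter alone the median of the list was 0.77, 2 of its 18 genes rose over the 100 libraries, and 12 were higher in the front libraries alone.

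Dmp1 and Spp1 lie near each other and near Ibsp (chr5:104299171-104311469, plus strand) on chromosome 5, in the cluster of genes for secreted phosphoproteins. Their promoters are shown for the letters AACCACA, which RUNX2, the factor that commits cells to the osteoblast fate, binds. A part of RUNX2 in the change of these genes was not tested. The windows run from 250 bases before to 50 bases after the start of transcription (RefSeq, GRCm38.p6). Both genes have 2 windows listed, of which the one shown is the one that holds the letters, and capitals mark a match to AACCACA on either strand.
Dmp1, chr5:104202367-104202666, plus strand: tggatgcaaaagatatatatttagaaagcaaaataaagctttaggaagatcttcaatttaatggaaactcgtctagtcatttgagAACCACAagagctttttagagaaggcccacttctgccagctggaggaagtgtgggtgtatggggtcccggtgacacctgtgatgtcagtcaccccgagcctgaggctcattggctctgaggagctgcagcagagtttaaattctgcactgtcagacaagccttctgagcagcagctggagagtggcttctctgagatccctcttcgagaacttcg
Spp1, chr5:104434861-104435160, plus strand: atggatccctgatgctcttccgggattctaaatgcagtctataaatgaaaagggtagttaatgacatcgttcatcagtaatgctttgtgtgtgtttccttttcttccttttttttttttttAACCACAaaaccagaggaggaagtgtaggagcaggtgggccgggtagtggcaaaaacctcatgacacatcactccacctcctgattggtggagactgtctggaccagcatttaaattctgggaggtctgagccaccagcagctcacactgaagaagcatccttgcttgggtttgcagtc
The match in Dmp1 began 165 bases and that in Spp1 129 bases before the start. Over all promoters, 1731 of 32851 windows (5.27%) held these letters, and 1646 of 27025 genes (6.09%) had them in at least 1 window. Of the 12 genes of the matrix, mineralization and osteocyte lists that rose, 9 had a window and 2 held the motif, namely Dmp1 and Spp1. Of all 35 genes tested in these lists, 27 had a window and 3 held it, the third being Slc20a1. A match describes the letters of the window and not a bound site.

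The abundant collagen genes rose by less than Dmp1 and Spp1. Col1a1, the main chain of type I collagen, stood at 21604, 23278, 20427, 20654 and 18346 CPM at E16.5 and at 33378, 39094, 33710, 34027 and 31568 CPM at E18.5. The ages were apart in every library, at a log2 fold change of 0.72 (SE 0.18, edgeR, adjusted p = 0.0134). Col1a2 rose by 0.65 (SE 0.16) and Sparc, the collagen-binding glycoprotein osteonectin, by 0.93 (SE 0.17). Ibsp, bone sialoprotein, was at 5620, 8139, 4633, 4400 and 4124 CPM at E16.5 and at 9572, 20514, 10438, 13163 and 13802 CPM at E18.5. Although no E18.5 library fell within the range of E16.5, its log2 fold change of 1.33 (SE 0.74) did not pass over the 100 libraries (edgeR, adjusted p = 0.671) and passed in the front libraries alone (adjusted p = 0.00919). Per kilobase of exon, Ibsp was at 2603 and 6527 CPM per kb, Col1a1 at 3179 and 5235, Spp1 at 35.4 and 287 and Dmp1 at 5.37 and 46.3 (mean levels at E16.5 and E18.5), so that the 2 genes with the largest changes remained far below the collagen and sialoprotein in level. Bglap, one of the closely similar osteocalcin genes, was at 0 to 1.31 CPM at E16.5 and 1.43 to 4.96 CPM at E18.5, did not overlap, and passed only in the front libraries alone (log2 fold change 2.17, edgeR, adjusted p = 0.519 and 0.0145). It shares sequence with Bglap2, so that reads may be split between them.

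Fewer genes of mineralization and of osteocytes than of the bone matrix passed over the 100 libraries, in shorter lists. Of 12 mineralization genes, Enpp1 alone rose, and the median was 0.49. Enpp1, the enzyme that makes the mineralization inhibitor pyrophosphate, stood at 21.1, 28.7, 30.8, 29.1 and 18.6 CPM at E16.5 and at 80.3, 81.0, 100, 104 and 63.9 CPM at E18.5, without overlap (log2 fold change 1.74, SE 0.34, edgeR, adjusted p = 0.000608). Alpl, the alkaline phosphatase that splits pyrophosphate, was at 303 to 412 and 331 to 475 CPM and overlapped (log2 fold change 0.22, SE 0.30, edgeR, adjusted p = 1). Another 6 genes were higher only in the front libraries alone, among them Phex, an endopeptidase of phosphate balance (log2 fold change 1.81, adjusted p = 0.0613 over the 100 libraries and 0.000748 alone), Ifitm5 (0.76, adjusted p = 0.587 and 6.23e-05), Smpd3 (0.51, adjusted p = 1 and 0.00127) and Ank, a pyrophosphate exporter (0.47, adjusted p = 0.463 and 0.0161). Of 8 osteocyte genes tested, Dmp1 and Cd44, a receptor for hyaluronan and osteopontin, rose, Cd44 by 0.86 (SE 0.22). All 8 had a log2 fold change above 0, the median was 1.06, and 7 were higher in the front libraries alone. Pdpn, a marker of young osteocytes, was higher in the front libraries alone (log2 fold change 0.95, adjusted p = 0.111 and 0.000176), and the mature osteocyte genes Sost and Fgf23 were below the filter.

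Of 27 collagens tested outside the cartilage list, 10 rose and none fell, with a median of 0.26, and in the front libraries alone 13 were higher and 3, namely Col8a1, Col8a2 and Col26a1, lower. These were the matrix chains of types I, V and XI, the basement membrane chains Col4a1, Col4a2, Col15a1 and Col18a1, and Col13a1, a transmembrane collagen. Col13a1 rose by 2.19 (SE 0.39) and Col11a1 by 0.78 (SE 0.19). Of 27 enzymes and chaperones that process collagen, 5 rose, none fell and the median was 0.28, and in the front libraries alone 14 were higher and 1 lower. They were the prolyl hydroxylases P4ha1 (0.93, SE 0.17) and P4ha2 (0.74, SE 0.20), the lysyl hydroxylase Plod2 (0.60, SE 0.15), and the lysyl oxidases Lox and Loxl2 (0.93, SE 0.17, for Loxl2). Serpinh1, the collagen chaperone, had a log2 fold change of 0.26 (SE 0.20) and passed only in the front libraries alone (edgeR, adjusted p = 0.921 and 0.0349). None of 16 genes of the endoplasmic reticulum and secretion passed, at a median of 0.19. Of 14 metalloproteinases and inhibitors, only the inhibitor Timp1 rose, by 1.10 (SE 0.26), and Mmp13, the collagenase of mature osteoblasts, was at 0.528 to 3.37 and 1.95 to 8.35 CPM and overlapped (edgeR, adjusted p = 0.379). None of this list rose with total counts or with the second E18.5 litter alone, and 5 were higher in the front libraries alone.

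Periosteal genes and proteoglycans gave no call over the 100 libraries, where 1.13% of all genes tested rose and 0.455% fell. Lists this short would seldom hold a call at those shares. None of 10 periosteal genes and none of 10 small leucine-rich proteoglycans passed, at medians of 0.12 and 0.26. In the front libraries alone 2 periosteal genes were higher and 2 lower, and 2 proteoglycans were higher and 1 lower. Those lower were Ogn, which is on both lists, and Thbs2. Postn, a periosteal matrix protein, had a log2 fold change of 0.64 (SE 0.19, edgeR, adjusted p = 0.0562, and 0.00238 in the front libraries alone). Omd and Lum, keratan sulfate proteoglycans, had 0.87 (adjusted p = 0.201 and 0.000837) and 0.49 (adjusted p = 0.118 and 0.00172).

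**Figure D4:**
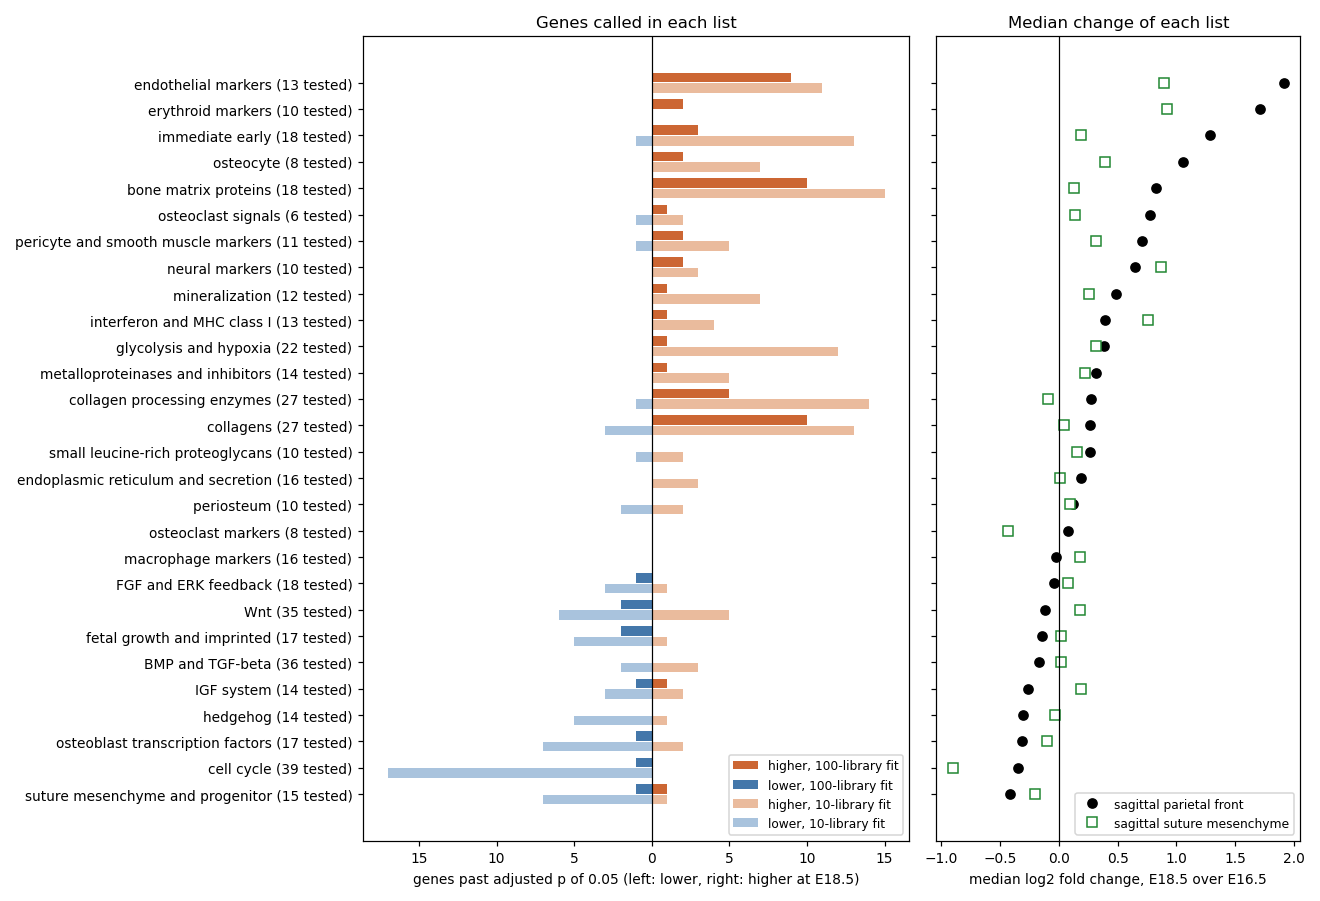
Left, the number of genes of each list past the threshold, higher to the right and lower to the left, in the fit of 100 libraries (dark) and of the 10 front libraries (light). Right, the median log2 fold change of each list in the front (filled circles) and in the SM (open squares). The endothelial median is 1.91 and the bone matrix median 0.82 in the front, against 0.89 and 0.13 in the SM.

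The transcription factors of the osteoblast lineage did not rise with the matrix genes. Of 17 tested, none rose and 1 fell, with a median log2 fold change of -0.31, and in the front libraries alone, where 15 were tested, 2 were higher and 7 lower. Runx2 stood at 664, 771, 658, 740 and 743 CPM at E16.5 and at 601, 546, 571, 588 and 582 CPM at E18.5. All E18.5 libraries were below all E16.5 libraries, but the log2 fold change of -0.31 (SE 0.13) passed only in the front libraries alone (edgeR, adjusted p = 0.386 and 0.0144). Sp7, the factor downstream of Runx2, overlapped between the ages at 299 to 372 and 292 to 371 CPM (edgeR, adjusted p = 1). Alx4, a homeobox gene of skull vault growth, stood at 94.2, 102, 89.4, 93.9 and 94.6 CPM and at 65.5, 55.7, 55.8, 54.6 and 61.3 CPM, and fell by 0.69 (SE 0.16, edgeR, adjusted p = 0.00648). Dlx5 and Msx2, homeobox factors of the front, had log2 fold changes of -0.53 (adjusted p = 0.106 and 0.00137) and -0.45 (adjusted p = 0.498 and 0.014), and Twist1, a repressor of osteoblast differentiation, -0.42 (adjusted p = 0.399 and 0.0235).

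Of 15 genes of SM and progenitors, 1 rose and 1 fell, at a median of -0.42, and in the front libraries alone 1 was higher and 7 lower. With total counts none rose and 1 fell. Prrx1, a homeobox marker of skeletal progenitors, stood at 544, 572, 721, 689 and 677 CPM at E16.5 and at 502, 504, 507, 440 and 434 CPM at E18.5. Its groups did not overlap, and it fell by 0.42 (SE 0.10, edgeR, adjusted p = 0.0127). Angptl2, a secreted angiopoietin-like protein, rose by 0.84 (SE 0.19). Erg, an ETS factor of SM, had a log2 fold change of -0.62 and passed only in the front libraries alone (edgeR, adjusted p = 0.57 and 0.0405). Outside this list, Alcam, an adhesion molecule, fell by 1.37 (SE 0.23, edgeR, adjusted p = 2.38e-05), from 286, 195, 324, 323 and 328 CPM to 127, 88.3, 110, 116 and 123 CPM, without overlap.

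The lists of signaling pathways of the suture are given with their calls over the 100 libraries. Of all genes tested 1.13% rose and 0.455% fell, shares at which lists of this length would hold few calls or none. In the Wnt list, 2 of 35 genes fell and none rose, at a median of -0.11, and in the front libraries alone 5 were higher and 6 lower. Lef1, the nuclear partner of beta-catenin, fell by 1.23 (SE 0.32, edgeR, adjusted p = 0.018), from 10.6 to 15.4 CPM to 3.35 to 7.11 CPM, and Dkk2, a secreted modulator of Wnt receptors, by 1.25 (SE 0.35, adjusted p = 0.043). Sfrp4, a secreted Wnt antagonist, had a log2 fold change of 2.32 and was higher in the front libraries alone (edgeR, adjusted p = 0.092 and 0.00051). In the FGF list, 1 of 18 genes fell, at a median of -0.04, and in the front libraries alone 1 was higher and 3 lower. It was Fgf2, with 37.0, 25.0, 36.6, 35.5 and 35.3 CPM at E16.5 and 27.7, 15.8, 18.3, 19.8 and 21.0 CPM at E18.5 (log2 fold change -0.72, SE 0.19, edgeR, adjusted p = 0.0241). E16.5 replicate 2 fell within the range of E18.5. Fgf18 and Fgfr2, a ligand of the front and the receptor on its osteoprogenitors, had log2 fold changes of -1.12 (adjusted p = 0.445 and 0.0381) and -0.38 (adjusted p = 0.186 and 0.00553).

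None of 36 genes of BMP and TGF-beta signaling passed, at a median of -0.17, and in the front libraries alone 3 were higher and 2 lower. Bmp4, a ligand of the fronts, was at 55.1 to 74.9 and 26.8 to 36.5 CPM without overlap (log2 fold change -0.88, SE 0.27, edgeR, adjusted p = 0.0857 and, in the front libraries alone, 2.78e-05). The ligand Tgfb1, at 0.99 on the log2 scale, did not pass over the 100 libraries (edgeR, adjusted p = 0.0694) and passed in the front libraries alone (adjusted p = 0.00132). None of 14 hedgehog genes passed, at a median of -0.30, and in the front libraries alone 1 was higher and 5 lower. The ligand Ihh overlapped, at 12.9 to 21.0 CPM at E16.5 and from 16.4 CPM at E18.5, where every library lay within the E16.5 range. On the log2 scale the receptor and target Ptch1 was at -0.56 (adjusted p = 0.255 and 0.00109), the activator Gli2 -0.56 (0.137 and 0.000456), the target Gli1 -0.48 (0.789 and 0.00506) and the decoy receptor Hhip -0.50 (0.872 and 0.00288), where the first p of each pair is over the 100 libraries and the second in the front libraries alone (edgeR, adjusted).

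Of 39 cell cycle genes, 1 fell over the 100 libraries and none rose, and 17 were lower in the front libraries alone. All 39 had a log2 fold change below 0, as did 10322 of the 19768 genes tested, and the median was -0.35. With the second E18.5 litter alone 31 were below 0, the median was -0.16 and none fell. Plk1, a kinase of mitosis, fell by 0.93 (SE 0.25, edgeR, adjusted p = 0.0312), from 30.6 to 41.0 CPM to 14.6 to 22.5 CPM. Top2a, the topoisomerase of dividing cells, stood at 399, 394, 417, 439 and 512 CPM and at 318, 336, 274, 367 and 403 CPM, with E18.5 replicate 5 within the range of E16.5 (log2 fold change -0.35, SE 0.16, edgeR, adjusted p = 0.486 and 0.0247 alone). Mki67 overlapped too, at 1045 to 1276 and 779 to 1117 CPM (adjusted p = 0.93 and 0.0686 alone).

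Of 17 fetal growth and imprinted genes, 2 fell and none rose, at a median of -0.14, and in the front libraries alone 1 was higher and 5 lower. With total counts 4 fell, and with either E18.5 litter alone none fell over the 100 libraries. Grb10, an imprinted brake on insulin and IGF receptors, fell by 0.35 (SE 0.09), and Igf2bp1, an RNA-binding protein of fetal tissue, by 0.64 (SE 0.18). Igf2 and H19 did not pass (log2 fold changes 0.09 and 0.17, edgeR, adjusted p = 1 and 0.979), and the value of Igf2 was -0.03 when libraries were scaled by total counts. Hmga2, a chromatin protein of fetal growth, had -1.12 (adjusted p = 0.0961 and 0.000456 alone). Of 14 genes of the IGF system, 1 rose and 1 fell, at a median of -0.26, and in the front libraries alone 2 were higher and 3 lower. Igfbp7 rose by 1.86 (SE 0.30), and Igfbp3 had 0.31 (edgeR, adjusted p = 0.956). Pappa2, a protease that frees IGF from its binding proteins, fell by 1.28 (SE 0.26), from 40.5 to 58.0 CPM to at most 32.0 CPM.

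Of 22 genes of glycolysis and hypoxia, Hk2 alone rose, at a median of 0.38, and 12 were higher in the front libraries alone. Hk2, a hexokinase, stood at 63.5, 64.8, 68.5, 68.3 and 83.3 CPM and at 88.8, 145, 94.0, 204 and 190 CPM (log2 fold change 1.05, SE 0.22, edgeR, adjusted p = 0.00143). The E18.5 libraries were all higher and spread over more than the E16.5 libraries. Ndrg1, a gene induced by low oxygen, had a change of 0.77 on that scale (adjusted p = 0.125 and 0.000277 alone).

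Immediate early genes, which cells switch on quickly after many stimuli, rose in 3 of 18 cases, at a median of 1.28. In the front libraries alone 13 were higher and 1, Myc, lower, and with total counts 2 rose and 1 fell. Fos stood at 1.85, 8.10, 3.03, 1.37 and 2.31 CPM at E16.5 and at 46.4, 28.7, 22.0, 11.0 and 11.3 CPM at E18.5 (log2 fold change 2.84, SE 0.81, edgeR, adjusted p = 0.0461). It was without overlap, and the first E18.5 litter lay above the second. Jund and Dusp1, a phosphatase of MAP kinases, rose by 2.05 (SE 0.48) and 1.65 (SE 0.33), and Ier3, which did not overlap, passed only in the front libraries alone (edgeR, adjusted p = 0.0652 and 7.43e-05). With the second litter alone the log2 fold changes were 1.76 for Fos, 1.68 for Jund and 0.91 for Dusp1, none of the 18 passed over the 100 libraries, and 7 were higher in the front libraries alone. Of 13 genes of interferon response and MHC class I, H2-D1 rose by 1.16 (SE 0.33), and H2-K1 had 1.12 (adjusted p = 0.321 and 2.33e-05 alone), 2 class I genes whose sequences are alike. In the front libraries alone 4 of the 11 tested there were higher. None of the list rose over the 100 libraries with total counts or with either E18.5 litter alone. Among 6 signals to osteoclasts, 1 rose, and in the front libraries alone 2 were higher and 1 lower. Tnfrsf11b, the decoy receptor osteoprotegerin, rose by 1.84 (SE 0.44), from 0.597 to 1.83 CPM to 2.89 to 6.45 CPM.

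Outside the lists, genes with a mean of at least 10 CPM that rose without overlap between the ages included Tppp3, a tubulin-binding protein of connective tissue sheaths (13.5, 31.0, 13.5, 11.5 and 16.4 CPM against 79.8, 102, 137, 88.6 and 81.9 CPM, log2 fold change 2.51, SE 0.46), and Nfatc2, a calcium-regulated transcription factor (2.56, SE 0.38). Tspan2, a tetraspanin, rose by 2.54 (SE 0.43). In E16.5 replicate 2, Tppp3, Nfatc2 and Tspan2 were each higher than in the other E16.5 libraries and still below every E18.5 library.

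Further genes with a mean of at least 10 CPM fell without overlap between the ages. Hif3a, a hypoxia-inducible factor that can act as an inhibitor, stood at 150, 125, 168, 159 and 134 CPM at E16.5, at 84.7, 89.4, 54.5 and 56.3 CPM in E18.5 replicates 1, 3, 4 and 5 and lower still in replicate 2, and fell by 1.14 (SE 0.15, edgeR, adjusted p = 1.29e-07). Ptx3, a secreted pentraxin, fell by 1.90 (SE 0.44), Rtl3 by 1.56 (SE 0.28), Fibin by 1.31 (SE 0.30), Plk2, a polo-like kinase, by 1.24 (SE 0.22), and Svep1, a large matrix protein, by 1.14 (SE 0.18). Adgrg6, an adhesion receptor, Gria3, a glutamate receptor subunit, and Fbn2, the fibrillin of fetal microfibrils, fell by 1.10 (SE 0.24), 1.09 (SE 0.29) and 1.07 (SE 0.29).

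Some calls followed the first E18.5 litter. Hba-a1 and Hba-a2, the near-identical alpha globin genes between which reads may be split, rose by 2.87 (SE 0.82, edgeR, adjusted p = 0.0473) and 3.25 (SE 0.82, adjusted p = 0.017), and the beta globin Hbb-bs had 2.86 (adjusted p = 0.0694). Hba-a1 stood at 434, 620, 1181, 48.2 and 41.2 CPM in E18.5 replicates 1 to 5 and at 33.6 to 121 CPM at E16.5. Replicates 4 and 5 lay within the E16.5 range, and with the second litter alone the log2 fold changes were -0.50 for Hba-a1, -0.21 for Hba-a2 and -0.86 for Hbb-bs. The neuronal genes Stmn2 and Elavl3 had the same layout, at 28.2, 11.9, 23.4, 0.613 and 0.872 CPM and 9.77, 4.28, 7.08, 0.0613 and 0.0671 CPM in E18.5 replicates 1 to 5. Their log2 fold changes of 2.27 (SE 0.65, edgeR, adjusted p = 0.0485) and 5.57 (SE 1.54, adjusted p = 0.0361) were -1.83 and -0.30 with the second litter alone. In the front libraries alone with that litter, Stmn2 passed in the lower direction (log2 fold change -1.85, edgeR, adjusted p = 0.00761). Snap25, a synaptic protein, was at 10.8 and 7.79 CPM in E18.5 replicates 1 and 3 and at 0.368 and 0.134 CPM in replicates 4 and 5 (edgeR, adjusted p = 0.0946).

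Compared with each other, the first and second E18.5 litters differed in 184 genes that were higher in the first and 73 that were lower, or 1.04% and 0.413% of 17661, while the E16.5 litters differed in 1 and 0 genes, or 0.00566% and 0.0% (edgeR, adjusted, front libraries alone, with 1065 genes at an unadjusted p below 0.05 at E16.5). With each library left out, the counts for the E18.5 litters ran from 47 to 459 and from 2 to 322. Of the genes that rose with age, 17 also differed between the E18.5 litters, and of those that fell, 2. The direction was the same with either E18.5 litter alone for 211 of the 224 genes that rose and for all 90 that fell. These fits reuse the libraries by which the genes were called, so that the agreement is no separate test of the change. Among markers of tissues next to the bone, Col2a1, the cartilage collagen, fell from 10.3 to 25.2 CPM to 1.05 to 3.64 CPM (log2 fold change -2.79, SE 0.67, edgeR, adjusted p = 0.0103) and Myh8, a myosin of fetal muscle, from 0.414 to 2.17 CPM to 0 to 0.248 CPM (-3.53, SE 0.86, adjusted p = 0.0108). The other 11 cartilage and 5 muscle markers tested did not pass, and the summed cartilage markers overlapped at 110 to 133 and 98.4 to 129 CPM.

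The SM between the parietal bones, captured from the same embryos, was used to ask which of these changes were larger in the front. The age change in the front less that in the SM passed for 2 genes in the higher and 1 in the lower direction over the 100 libraries, 0.0101% and 0.00506%, with 678 genes at an unadjusted p below 0.05 (edgeR). Since each embryo gave both an SM and an OF library, the test was also run with the embryo as a replicate block, in these 20 libraries alone, and then 683 genes (3.67%) and 364 genes (1.96%) of 18586 passed. In the same 20 libraries without the block 413 and 208 passed. The 3 genes that passed in both fits were Col4a1, Anxa2 and Epha4. Over the 100 libraries no gene passed with total counts, nor without replicate 3 of the front at E16.5 or at E18.5. Col4a1 was 1.52 higher at E18.5 in the front and 0.22 in the SM, a difference of 1.29 (adjusted p = 0.0128 over the 100 libraries). With the embryo as a block the difference was 1.35 (SE 0.13, edgeR, adjusted p = 3.5e-06). The log2 level of Col4a1 in the front less that in the SM was -1.47 at E16.5 (edgeR, adjusted p = 1.58e-10) and -0.18 at E18.5, which did not pass (adjusted p = 0.539). Anxa2, a calcium-dependent membrane-binding protein, had a log2 fold change of 0.41 in the front (adjusted p = 0.309) and fell by 0.78 in the SM, while Epha4, an ephrin receptor, fell by 0.99 in the front and had 0.57 in the SM (adjusted p = 0.29), and the differences were 1.19 and -1.56 (adjusted p = 0.0128 each).

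**Figure D5:**
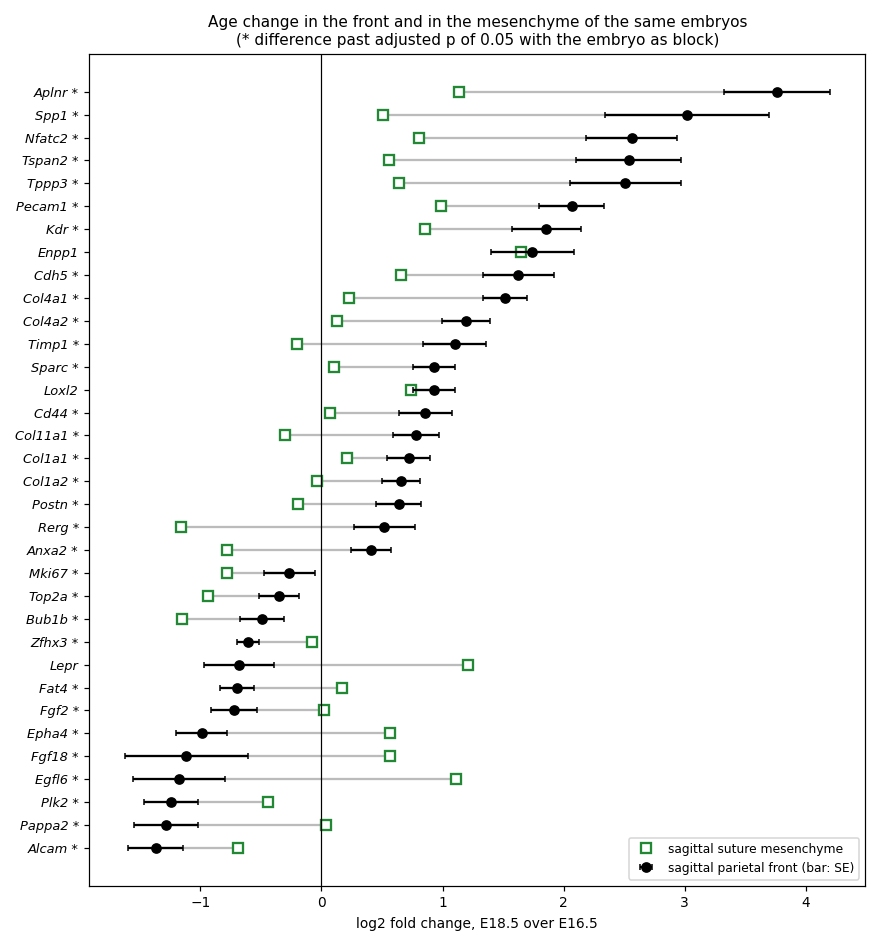
Log2 fold change with age of 34 genes in the front (filled circles, bars are SE) and in the SM of the same embryos (open squares). An asterisk marks a difference past the threshold with the embryo as block, which 31 of the 34 have. Some of these genes were picked for their small p in this same difference. Over all 18586 genes tested, 3.67% passed in the higher and 1.96% in the lower direction. Col4a1 lies at 1.52 and 0.22, and the cell cycle gene Top2a at -0.35 and -0.94.

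With the embryo as a block, 7 of the 13 endothelial genes rose by more in the front than in the SM, and none by less. The medians of the list were 1.91 in the front and 0.89 in the SM. Of the 11 pericyte and smooth muscle genes, 1 passed in the higher and 1 in the lower direction, at medians of 0.71 and 0.32. Pecam1 itself rose in the SM, by 0.99, and its difference of 1.12 (SE 0.17, edgeR with embryo block, adjusted p = 0.000219) passed, as did those of Cdh5 (1.03, SE 0.16), Kdr (1.07, SE 0.23) and Aplnr (2.85, SE 0.34). For the bone matrix, 8 of 18 genes passed in the higher direction and none in the lower, and the medians were 0.82 and 0.13. Among them, Sparc differed by 0.87 (SE 0.11), Col1a1 by 0.55 (SE 0.12), Col1a2 by 0.73 (SE 0.11), Col11a1 by 1.12 (SE 0.15) and Spp1 by 2.70 (SE 0.56). The difference of Dmp1, 2.63, did not pass (edgeR with embryo block, adjusted p = 0.367). Nor did that of Ibsp, which was -1.03 (adjusted p = 0.596), with log2 fold changes of 1.33 in the front and 2.73 in the SM. Enpp1 and Loxl2 rose in both tissues, and their differences of 0.06 (SE 0.21, edgeR with embryo block, adjusted p = 0.927) and 0.23 (SE 0.11, adjusted p = 0.284) did not pass.

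The cell cycle list was lower by more in the SM, with medians of -0.35 in the front and -0.90 in the SM, and for 20 of its 39 genes the difference passed. Top2a fell by 0.94 in the SM, and its difference was 0.63 (SE 0.13, edgeR with embryo block, adjusted p = 0.00541), while Mki67 and Bub1b, a checkpoint kinase, differed by 0.54 (SE 0.11) and 0.69 (SE 0.12). Timp1, Nfatc2, Tppp3, Tspan2, Cd44 and Postn differed by 1.33 (SE 0.16), 1.82 (SE 0.20), 1.96 (SE 0.26), 2.09 (SE 0.31), 0.82 (SE 0.11) and 0.84 (SE 0.14). Alcam, Plk2, Pappa2, Fgf2 and Zfhx3 fell in the front, did not pass in the SM (log2 fold changes -0.69, -0.44, 0.04, 0.02 and -0.08), and had differences of -0.63 (SE 0.15), -0.77 (SE 0.11), -1.32 (SE 0.16), -0.70 (SE 0.19) and -0.50 (SE 0.09). Fat4, a protocadherin, fell by 0.70 in the front and had 0.17 in the SM, with a difference of -0.86 (SE 0.12). Egfl6, a secreted protein with EGF repeats, had -1.18 and 1.11, neither past the threshold by itself, and a difference of -2.30 (SE 0.21). Lepr, the leptin receptor, had -0.68 in the front and rose by 1.21 in the SM, and its difference of -1.73 (SE 0.48) missed the threshold (edgeR with embryo block, adjusted p = 0.0845). The embryo block left the age change itself confounded with litter in both tissues alike.

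The parietal OF at the lambdoid and coronal sutures was compared in the same way, with the same 10 front libraries in each difference. Replicate 5 of the lambdoid suture at E18.5 came from the litter of sagittal replicates 1, 2 and 3, and the fit took these libraries as independent. The age change at the sagittal suture less that at the lambdoid suture passed for 66 genes in the higher and 72 in the lower direction (0.334% and 0.364%), and less that at the coronal suture for 644 and 812 genes (3.26% and 4.11%). With total counts the coronal counts were 354 and 2270. With each library left out the lambdoid counts ran from 20 to 109 and from 16 to 96. Vascular genes were again among those named. Aplnr had log2 fold changes of 3.76 at the sagittal, 0.49 at the lambdoid and -3.46 at the coronal suture, and differences of 3.28 (edgeR, adjusted p = 0.000403) and 7.22 (adjusted p = 1.35e-15). Pecam1 had 2.07, 0.45 and -1.41, and Cdh5 1.63, -0.03 and -2.02, with differences from the coronal suture of 3.48 (adjusted p = 3.92e-11) and 3.65 (adjusted p = 8.65e-10). Fabp4, Col15a1 and Cav1 rose at the sagittal suture, had 0.23, 0.07 and 0.44 at the lambdoid suture, and differed from it by 2.67, 1.89 and 1.98. The endothelial medians were 1.91, 0.12 and -0.82 at the 3 sutures. Those of the pericyte and smooth muscle list were 0.71, 0.64 and 1.59 in the same order, so that list was not higher at the sagittal suture alone.

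The medians of the bone matrix list were 0.82, 0.20 and 0.15 at the sagittal, lambdoid and coronal sutures, and of its 18 genes 2, Col1a1 and Col24a1, had a difference from the coronal suture that passed, and none from the lambdoid suture. Col1a1 had log2 fold changes of 0.72, 0.22 and -0.22 and differed from the coronal suture by 0.94 (edgeR, adjusted p = 0.0105), and Phex differed from it by 2.65 (adjusted p = 0.0159). Spp1 had log2 fold changes of 3.02, 0.19 and 3.03 in the same order, and neither difference passed (edgeR, adjusted p = 0.156 and 1). Dmp1 had 3.11, 0.91 and 2.00, and its differences did not pass either (adjusted p = 0.45 and 0.533). Hif3a fell at the sagittal and coronal sutures, by 1.14 and 0.84, and had 0.20 at the lambdoid suture, a difference of -1.34 (adjusted p = 0.000157). Zfhx3 and Zfp521, zinc finger factors, differed from the lambdoid suture by -0.78 and -1.28, and Ndst3, a heparan sulfate enzyme, by -3.42 from the lambdoid and -3.88 from the coronal suture. Ribosomal protein genes took 3.56% to 4.49% of counts in the sagittal front, at least 1.12% in the lambdoid and 0.621% to 1.45% in the coronal parietal OF, without overlap between the sagittal front and the others. Mitochondrial genes took 34.2% to 42.7% of counts at E16.5 and 21.5% to 27.5% at E18.5 in the coronal parietal OF. The part of these library properties in the differences between sutures was not tested.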

How the data were processed

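Regions were cut from sections by laser, and the RNA of each was amplified and made into Nextera XT libraries, of which read pairs were sequenced. Per the labels and the study's methods, reads were trimmed with cutadapt, aligned to mm10 with STAR (version 2.5.3a in the submitters' processing notes) and counted over GENCODE exons without regard to strand by featureCounts (version 1.6.4). The deposited count values are whole numbers of read pairs per gene for 55487 genes in each library, without normalization. A deposited table of log2 ratios between groups holds the authors' own comparisons and was not used, nor were second coronal libraries, complete sutures and single cells.

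The analysis ran in R 4.3.3. A gene was kept if more than 10% of the 100 first captured libraries reached 1 CPM (19768 genes). Libraries were scaled by TMM and fitted with the quasi-likelihood model of edgeR 4.0.16, with 1 mean per group (20 groups). P-values were 2-sided and adjusted by Benjamini-Hochberg at 0.05. The authors used TMM with limma-voom. CPM were computed on TMM library sizes, and an SE is the fold change divided by the quantile of the t distribution that its p gives. In simulated data for the age comparison over 19768 genes, 7, 28, 45 and 48 of 50 genes changed by 1.5, 2, 3 and 4-fold were recovered, beside 8 false calls. The changed genes all had more than 50 expected counts, so that recovery at lower counts was not tested. Libraries were simulated as independent, without litters, and with 1 mean per gene in all groups before the change. Their spread was that of the 100-library fit, whose common biological coefficient of variation was 0.473. Recovery at the spread of the front libraries alone (0.212) was not simulated. No 2 libraries held identical counts. Counting error is covered by the model and amplification copies are not told apart.

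The OF and SM libraries of one number came from the same embryo by their litter labels. Their residuals had a median correlation of 0.0589 at E16.5 and 0.190 at E18.5, so the embryo served as a replicate block beside the unblocked difference. Across ages a number joins no embryos (median correlation 0.0482). Measures of whole libraries were compared by exact permutation of 5 against 5 libraries (all arrangements, scipy 1.17.1). Embryos of one litter are related, so p-values cover only the spread between these samples.

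The members and lists were chosen with earlier results of these data known. The text names fixed genes of bone and suture biology, up to 4 genes of each list with the smallest adjusted p and its highest member, the 12 largest changes in each direction among called genes of at least 10 CPM without overlap between the ages (predicted genes left out), and the 5 smallest adjusted p in each direction for each difference between tissues. One gene named by this rule is not reported here. Alternatives were DESeq2 1.42.0, limma-voom (limma 3.58.1), median-ratio factors, total counts, other filters, the front libraries alone, blocks, either E18.5 litter alone, and each library left out.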

Additional observations from a re-analysis of the deposited data

Results flagged for a closer look

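Single libraries stood far from the other 4 of their age in 24 of 276 groups of 5 values, where chance gives about 1 in 20. E16.5 replicate 1 was far above the rest in the erythroid sum (604 CPM), the haemoglobin share of counts (0.0643%), Hba-a1 (121 CPM), Hba-a2 (35.4 CPM) and Igfbp7 (22.6 CPM). E16.5 replicate 2 was far above in Tppp3 (31.0 CPM), Tspan2 (5.38 CPM), Nfatc2 (15.9 CPM) and Fos (8.10 CPM) and far below in Fgf2 (25.0 CPM). E16.5 replicate 3 was far above in Fibin (21.9 CPM) and Col2a1 (25.2 CPM), and replicate 5 in Hk2 (83.3 CPM) and H2-D1 (11.4 CPM). E18.5 replicate 1 was far above in the chondrocyte sum (129 CPM), Angptl2 (263 CPM) and Egfl6 (19.5 CPM). E18.5 replicate 2 was far above in the sum of the 6 osteoblast genes (61468 CPM), Ifitm5 (450 CPM) and Col13a1 (48.4 CPM) and far below in Plk2 (32.9 CPM). E18.5 replicate 3 was far above in Ptx3 (7.92 CPM), replicate 4 far below in Bmp4 (26.8 CPM), and replicate 5 far above in Rgs5 (101 CPM).

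The log2 age change in the front less that in the SM passed its own test over the 100 libraries for Col4a1 (1.29), Anxa2 (1.19) and Epha4 (-1.56). With the embryo as a block it passed for 683 genes in the higher and 364 in the lower direction, of which only genes picked for naming follow. With the embryo as a replicate block it passed in the higher direction for Aplnr (2.85), Spp1 (2.70), Tspan2 (2.09), Tppp3 (1.96), Nfatc2 (1.82), Rerg (1.76), Timp1 (1.33), Col11a1 (1.12), Pecam1 (1.12), Col4a2 (1.07), Kdr (1.07), Cdh5 (1.03), Sparc (0.87), Postn (0.84), Cd44 (0.82), Col1a2 (0.73), Bub1b (0.69), Top2a (0.63), Col1a1 (0.55) and Mki67 (0.54). It passed in the lower direction for Egfl6 (-2.30), Fgf18 (-1.73), Pappa2 (-1.32), Fat4 (-0.86), Plk2 (-0.77), Fgf2 (-0.70), Alcam (-0.63) and Zfhx3 (-0.50).

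The age change at the sagittal suture less that at the lambdoid suture passed for Hba-a2 (5.91), Aplnr (3.28), Fabp4 (2.67), Cav1 (1.98), Col15a1 (1.89), Zfhx3 (-0.78), Zfp521 (-1.28), Hif3a (-1.34), Mfap4 (-1.67) and Ndst3 (-3.42). Less that at the coronal suture it passed for Aplnr (7.22), Flt4 (4.11), Cdh5 (3.65), Pecam1 (3.48), Itga6 (3.15), Thbs2 (-1.27), Thsd4 (-1.88), Crip1 (-2.70), Fibin (-2.73) and Ndst3 (-3.88). These differences share the 10 front libraries, and Hba-a2, which was high only in the first E18.5 litter of the sagittal suture (log2 fold change 3.25), had -2.66 at the lambdoid suture (edgeR, adjusted p = 0.0876), where haemoglobin genes took 0.101% to 1.59% of counts at E16.5 and 0.0228% to 0.254% at E18.5.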

How the results depend on the processing

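Age is confounded with litter in every fit, and the libraries were amplified, which limits what low counts can show. Of 117 genes given values, 70 passed, 49 of these also in all 6 other normalizations, filters and tests, 44 without each library in turn and 67 in the front libraries alone, where 38 of the others passed too. The counts of genes that rose and fell (224 and 90) were 139 and 146 with total counts, 1337 and 882 in the front libraries alone, 1041 and 770 there with litter as a random block, 167 and 25 with the first E18.5 litter alone and 83 and 27 with the second. In fits chosen after seeing the data, they were 1370 and 800 in the front libraries with the first litter alone and 1245 and 1008 with the second. Numbers join no embryos across ages, and a replicate block on them gave 1410 and 1037. With each library left out the counts were 130 to 209 and 36 to 93 (130 and 40 without E16.5 replicate 3, 130 and 47 without E16.5 replicate 4, and 36, 51 and 53 that fell without E18.5 replicates 2, 4 and 5), and in the front libraries alone 905 to 1449 and 511 to 1027. The difference from the SM (2 and 1 genes) gave 0 and 0 with total counts, 9 and 7 with DESeq2, 4 and 5 with limma-voom, 413 and 208 in its own 20 libraries, 683 and 364 with the embryo as replicate block, and 0 to 4 and 0 to 5 with each library left out. The difference from the lambdoid suture (66 and 72) gave 37 higher with total counts, 34 higher without a filter, 104 and 115 with DESeq2, 31 and 28 with limma-voom, 645 and 350 in its own libraries, and 20 to 109 and 16 to 96 with each library left out, lowest without lambdoid E16.5 replicate 2. The difference from the coronal suture (644 and 812) gave 354 and 2270 with total counts, 970 higher with DESeq2, 1353 lower with limma-voom, 446 lower in its own libraries, and 508 to 726 and 624 to 1199 with each library left out. The E18.5 litters (184 and 73) gave 83 and 39 with limma-voom and 47 to 459 and 2 to 322 with each library left out, lowest without E18.5 replicate 5 and highest without E18.5 replicate 2, and the E16.5 litters (1 and 0) gave 0 to 6 and 0 to 2. The sign turned for Igf2 (-0.031) and Ihh (-0.049) with total counts, for Sp7 (0.052, and 0.069 in the front libraries alone) with the first E18.5 litter alone, and with the second for Alpl (-0.032), Igf2 (-0.32), Hba-a1 (-0.50), Hba-a2 (-0.21), Hbb-bs (-0.86), Stmn2 (-1.83) and Elavl3 (-0.30), of which the front libraries alone gave -0.043, -0.34, -0.51, -0.23, -0.87 and -1.85 for the first 6. With each library left out Ihh ran from -0.0068 (without E16.5 replicate 3) to 0.17 (0.18 in the front libraries alone) and Sp7 from -0.095 to 0.0056 (0.012 in the front libraries alone), above 0 without E18.5 replicate 4 in both. The cause of these shifts was not tested.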

Other observations

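Within each age, replicate 2 had the highest levels of some genes of osteoblasts and not of others. Of the E16.5 libraries it was the highest in Ibsp (8139 CPM), Dmp1 (37.9 CPM), Phex (38.0 CPM) and Col1a1 (23278 CPM), and of the E18.5 libraries in Ibsp (20514 CPM), Dmp1 (160 CPM), Phex (124 CPM), Col1a1 (39094 CPM) and Pdpn (59.9 CPM). Spp1 (104 and 704 CPM) and Enpp1 (30.8 and 104 CPM) were instead highest in replicate 3 at E16.5 and in replicate 4 at E18.5, and Bglap in replicate 3 at both ages (1.31 and 4.96 CPM). Alpl was highest in replicate 2 at E16.5 (412 CPM) and in replicate 3 at E18.5 (475 CPM). The numbers join no embryos between the ages, and these genes were chosen after their values were seen.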
